A study of Mus musculus with 6 samples.

Results

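The 8 genes described here, Spi1, Cebpa, Cebpb, Cebpe, Gfi1, Klf4, Runx1 and Id2, encode transcription regulators of the myeloid lineage and were found by symbol among the 32285 genes of the count matrices. Their transcripts were counted in hematopoietic stem and progenitor cells of the bone marrow, sorted as lineage-negative, cKit-positive and Sca1-positive (LSK) cells from C57BL/6J (CD45.1) mice. The mice were female, aged 8 to 12 weeks, received no conditioning, and were injected with PBS or with 1000000 C1498 cells, a murine acute myeloid leukemia (AML) line that carries the CD45.2 allele, and LSK cells were collected at day 21. Sorting on CD45.1 keeps host cells, so both groups are healthy LSK cells that differ in whether leukemia was present, and C1498 stands for 1 leukemia line. There were 3 libraries in each group, made with droplet chemistry that counts unique molecular identifiers (UMIs).

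The single-cell table that the authors deposited holds 16822 cells, each with a class (HSC, MPP2, MPP3 or MPP4, for hematopoietic stem cell and 3 kinds of multipotent progenitor) and a cluster number from 0 to 8. Its cells come from 5 libraries, PBS replicates 1, 2 and 3 and AML replicates 1 and 3, so that the comparisons set 3 libraries against 2. The cells of a library carried 1945659 to 32123508 UMIs in all, with a median per cell of 2393 to 9586. AML replicate 1 had the smallest total and the lowest median, and its profile of summed log2 counts correlated with the others at r = 0.916 to 0.942, against 0.972 to 0.984 among the other 4. No pair of libraries shared more than 12 cell barcodes in this table, although 1223 of the 1256 barcodes in the whole matrix of PBS replicate 2 also occur in that of AML replicate 2. Results that rest on AML replicate 1 are therefore also given without it. Kit and Ly6a, the genes of the sort markers cKit and Sca1, were detected in every library, at 79.7 to 104 and 101 to 203 CPM. CPM is the number of UMIs of a gene per 1000000 UMIs of the cells summed, and levels of different genes are not compared here because the assay reads transcript ends and genes differ in how well they are captured.

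Spi1 encodes PU.1, an Ets factor that is required for myeloid and lymphoid development and that opens monocytic and granulocytic genes together with its partner Irf8 and with C/EBP factors. Runx1, the DNA-binding subunit of core binding factor, acts upstream of Spi1 and in stem cell emergence. Cebpa directs the step from multipotent to granulocyte and monocyte progenitors, Cebpb drives granulocyte production under infection and cytokine stimulation, and Cebpe acts later, in granule formation. Gfi1 is a zinc-finger repressor that favors neutrophils over monocytes and restrains stem cell proliferation. Klf4 supports monocyte differentiation, and Id2 encodes an inhibitor of E proteins that takes part in innate lymphoid and dendritic cell development.

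By the GENCODE annotation of GRCm38, the build named in the submitters' processing notes, Spi1 lies on chromosome 2 from 91082390 to 91115756 on the plus strand, and Cebpb on the same chromosome and strand from 167688915 to 167690418. Cebpa lies on chromosome 7, Gfi1 on chromosome 5, Klf4 on chromosome 4, Id2 on chromosome 12 and Cebpe on chromosome 14. Runx1 spans 224684 bases of chromosome 16, from 92601466 to 92826149 on the minus strand. RefSeq promoter windows (250 bases before and 50 after a start, GRCm38.p6) were held for 6 of the 8 members. Cebpb and Runx1 are described at most length below, although neither was called between PBS and AML. For Cebpb and the distal start of Runx1, the part of the upstream window outside the annotated gene body is printed here. Each is given 5′ to 3′ on the gene's own strand. These sequences lie at chr2:167688665-167688914 (plus strand) and chr16:92826150-92826324 (minus strand), and 81.6% and 45.1% of their bases are G or C.
Cebpb: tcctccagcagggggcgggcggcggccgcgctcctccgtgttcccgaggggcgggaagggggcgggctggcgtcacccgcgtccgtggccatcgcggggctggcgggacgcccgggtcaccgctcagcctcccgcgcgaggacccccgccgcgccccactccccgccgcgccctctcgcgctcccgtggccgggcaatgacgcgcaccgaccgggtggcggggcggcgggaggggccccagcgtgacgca
Runx1: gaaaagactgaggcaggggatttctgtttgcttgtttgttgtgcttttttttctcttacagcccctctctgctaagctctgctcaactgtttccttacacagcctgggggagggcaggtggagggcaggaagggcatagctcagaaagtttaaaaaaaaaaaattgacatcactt

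Consensus letters for PU.1 (GAGGAAGT), C/EBP (TTGCNNAA), RUNX (TGTGGT), a site of GATA factors (AGATAA) and the interferon-stimulated response element were searched on both strands of the 8 windows of these members. A C/EBP match lay 143 bases before a Gfi1 start, and 2 RUNX matches lay 28 and 36 bases after the distal Runx1 start. The other 6 windows, Cebpb included, held none of the 5. Among all 32851 promoter windows of this length, 3.20% held the PU.1 letters, 10.8% the C/EBP, 16.8% the RUNX, 11.2% the GATA and 3.44% the interferon letters. A match describes letters and is not evidence of binding.

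The first question was where each gene was expressed among the authors' classes and clusters. Because classes and clusters were drawn from the expression of the same cells, the levels below are a description over 5 libraries without a test, and a step in an order is called beyond the spread only where it held in every library that had both groups of cells.

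Runx1 was highest in the HSC class, with a mean of 313 ± 104 CPM (SD, n = 5), and it fell in order to MPP4 (298 CPM), MPP3 (221 CPM) and MPP2 (215 CPM). HSC lay above MPP4, and MPP4 above MPP3, in 5 of 5 libraries, while MPP3 and MPP2 did not differ beyond their spread. Among clusters, cluster 0 led with 348 ± 110 CPM, and cluster 0 also had the highest summed level of 12 HSC marker genes. Cluster 6, in which B cell markers summed to 76618 CPM, had the lowest Runx1 at 42.5 ± 8.41 CPM (n = 3). Cluster 8, the next in order (283 CPM), lay below cluster 0 in 2 of the 3 libraries with both, so the top step did not hold beyond the spread.

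Spi1 ranged over the classes from 119 ± 23.0 CPM in MPP2 to 151 ± 38.5 CPM in MPP4. MPP4 lay above HSC and above MPP2 in 5 of 5 libraries, while no neighbors in the order differed beyond their spread. Clusters separated it further. Cluster 4 had the highest mean, 190.0 ± 46.6 CPM, and lay above cluster 5, the next in order, in 4 of 4 libraries. Clusters 6 and 7, the latter with the highest sums of erythroid and MPP-2 markers, held only 23.8 ± 4.24 and 21.1 ± 7.14 CPM (n = 3).

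Cebpa followed a clear order. It was highest in MPP3, the granulocyte and monocyte-biased progenitor class, at 18.5 ± 5.65 CPM, then 11.4 ± 2.39 CPM in MPP4, 7.86 ± 2.40 CPM in MPP2 and 4.21 ± 2.42 CPM in HSC. The first 2 steps held in 5 of 5 libraries and the last in 4 of 5. Cluster 4 had 25.1 ± 9.49 CPM of Cebpa, above cluster 1 (12.7 ± 3.18 CPM) in 5 of 5 libraries. Cluster 4 is also where 8 MPP-3 markers, among them Mpo, Elane and Prtn3, had their highest sum, 6053 CPM. The MPP3 class was mixed. Of its 2369 cells 564 lay in cluster 4, 172 in cluster 6, with its B cell markers, and 72 in cluster 8, with T and NK cell markers.

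Cebpb was spread more evenly, from 84.0 ± 23.9 CPM in MPP2 to 136 ± 44.9 CPM in MPP3, and MPP3 and MPP4 (116 CPM) each lay above MPP2 in 5 of 5 libraries, while no step between neighbors in the order held in every library. By cluster it was highest in cluster 8 (184 ± 46.7 CPM, n = 3) and cluster 4 (170 ± 63.0 CPM, n = 5), which did not differ beyond their spread, and lowest in cluster 7 (29.4 ± 33.1 CPM). Its range between libraries of 1 cluster was wide, and PBS replicate 1 exceeded both other PBS libraries in clusters 0 to 4.

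Cebpe was rare and the most restricted of the 8. Of its 91 UMIs in all 16822 cells, 64 lay in the 826 cells of cluster 4, where its level was 8.59 ± 6.20 CPM. The next cluster in order, cluster 5, reached 0.928 CPM from 2 UMIs. In clusters 6, 7 and 8 no UMI was seen in 177, 102 and 113 cells, counts that allow up to 1.69%, 2.94% and 2.65% of cells with a UMI by counting error alone. By class, 66 of the UMIs were in MPP3, at 3.54 ± 3.00 CPM, against at most 0.337 CPM elsewhere, and MPP3 was higher in 4 of 5 libraries.

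Id2 stood apart by cluster 8, a small cluster that also had the highest sum of T and NK cell markers (1312 CPM). It reached 235 ± 68.7 CPM there (n = 3), against 19.2 ± 18.2 CPM in cluster 4, the next in order, and the difference held in 3 of 3 libraries. By class, Id2 was highest in MPP3, with 12.2 ± 5.50 CPM against 3.87 ± 3.46 CPM in HSC, in 5 of 5 libraries. The MPP3 class held 72 of the 113 cells of cluster 8 and 564 of the 826 cells of cluster 4, while Id2 was at most 5.63 CPM on average in the other clusters, and the part of these cells in the class value was not tested.

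Gfi1 and Klf4 were low everywhere. Gfi1 was highest in MPP4 at 15.03 ± 10.6 CPM, above HSC and MPP2 in 5 of 5 libraries and above MPP3 in 3 of 5. Klf4 was highest in HSC at 11.7 ± 20.8 CPM, above MPP4, the next in order, in 1 of 5 libraries. The Klf4 mean in HSC rested on AML replicate 1, which had 48.9 CPM from 3 UMIs in 23 HSC-class cells, against 1.71 to 3.22 CPM in the other 4 libraries. Gfi1 was not seen in cluster 7, whose 8 erythroid markers summed to 10910 CPM.

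**Figure D1:**
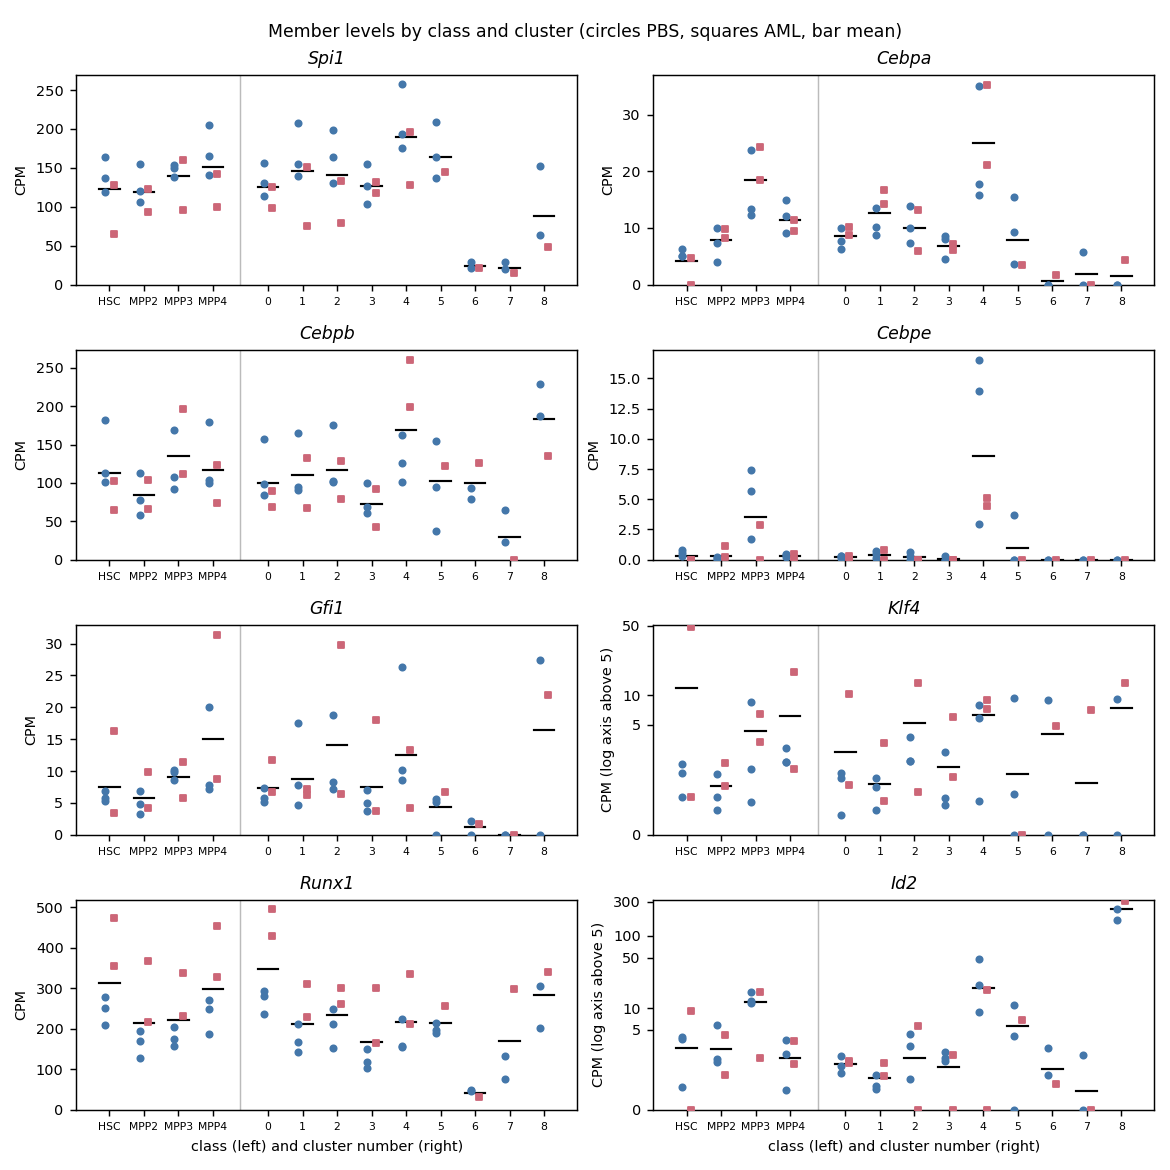
Level of each member in CPM, by class (left of the grey line) and cluster number (right), with a circle for each PBS library, a square for each AML library and a bar at their mean. The panels of Klf4 and Id2 have an axis that is linear to 5 CPM and logarithmic above it. Cebpa and Cebpe were highest in MPP3 and cluster 4, Id2 in cluster 8 and Runx1 in HSC and cluster 0.

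To place each member among other genes, the likeness of its pattern was taken as Pearson's r of log2 CPM over the 9 clusters, each averaged over the PBS libraries with at least 20 cells, among 5307 genes with a mean of at least 20 CPM. These are descriptions over 9 points that share libraries and depth. Cebpa, Cebpe, Gfi1, Klf4 and Id2 each had 0 or 1 PBS UMIs in at least 1 cluster. Their r values therefore rest in part on points near the floor. Cebpe was most like Prss34 (r = 0.926), Mcpt8 (0.910) and Cst3 (0.880), the first 2 being basophil proteases. Within cluster 4, 1 of 43 cells with a Cebpe UMI also had 2 or more UMIs of Mcpt8 and Prss34, against 38 of 783 cells without a Cebpe UMI, a difference that was not tested. Among the genes most like Spi1 were Fkbp1a (0.985) and Rnaset2b (0.982). Cebpa was most like Hacd2, Hadhb and Mgat2 (0.952 to 0.990), and Cebpb like Cdc42se2, Wipf1 and Glmp (0.933 to 0.9504). Gfi1 was most like Cyth4, Lat2 and Emb (0.973 to 0.986), Klf4 like Cd53, Tram1 and Grn (0.923 to 0.945), Runx1 like Dnajc1, Sdccag8 and Casd1 (0.983 to 0.989), and Id2 like Nfkbib, Lamp1 and Ms4a4b (0.898 to 0.908).

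The second question was whether these regulators changed in LSK cells of leukemic mice. Over all LSK cells none of the 8 passed the edgeR quasi-likelihood test at an adjusted p of 0.05, in a comparison where 23 of 14364 genes did (0.16%, made up of 0.153% that rose and 0.00696% that fell). At an unadjusted p under 0.05 there was 1 member, Runx1, against 10.5% of all genes, and DESeq2 and limma-voom also called 0 members. The classes had different shares in the groups: MPP3 was 11.6%, 4.39% and 9.60% of the cells of the PBS libraries and 32.9% and 22.3% of those of the AML libraries, and HSC was 20.5%, 23.9% and 21.9% against 3.32% and 13.7%. Values over all LSK cells, those of the target genes included, hold this shift. A sum over a library does not separate the number of expressing cells from the RNA per cell. The labels describe the libraries of a group as separate samples, and p-values measure the spread between these samples only.

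Runx1 was the member with the most regular difference. Its level was 236, 166 and 207 CPM in PBS replicates 1, 2 and 3, and 377 and 267 CPM in AML replicates 1 and 3. Both AML libraries lay above all 3 PBS libraries, as did those of 16% of all genes tested. The log2 fold change, AML over PBS, was 0.64 ± 0.26 (SE), with an adjusted p of 0.421 in edgeR. Without AML replicate 1, whose level was the highest, it was 0.37, so its size depended on that library while its direction did not.

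Spi1 ranged over 143, 175 and 122 CPM in PBS and 94.6 and 139 CPM in AML, and the groups overlap. Its log2 fold change was -0.35 ± 0.26 (adjusted p = 0.629, edgeR), and -0.11 without AML replicate 1. Irf8, the partner of PU.1 in monocyte and dendritic cell development, was 22.7, 9.80 and 26.8 CPM in PBS and 106 and 80.3 CPM in AML. It rose by 2.17 ± 0.33 on the log2 scale (adjusted p = 0.0183, edgeR). Without PBS replicate 1 or without AML replicate 1 the adjusted p of Irf8 was 0.133 or 0.0557, with log2 fold changes of 2.25 and 1.96, and with cells thinned to 2000 UMIs it was 0.0583. With equal class composition the log2 fold change was 1.76.

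The 3 C/EBP factors did not separate the groups. Cebpa, the factor of the granulocyte and monocyte step, was 7.04, 11.8 and 9.28 CPM in PBS and 14.4 and 11.1 CPM in AML, a log2 fold change of 0.36 ± 0.29. This value was 0.17 to 0.63 with 1 library left out (lowest without PBS replicate 1, highest without AML replicate 3) and -0.020 with equal class composition. Cebpb was 155, 84.7 and 93.7 CPM in PBS and 82.2 and 135 CPM in AML, so that each group held a high and a low library, and its log2 fold change was -0.03 ± 0.28. Cebpe was 1.03, 0.288 and 1.14 CPM in PBS and 0.514 and 1.01 CPM in AML, from 1 to 33 UMIs a library. Their adjusted p-values in edgeR were 0.654, 0.978 and 0.987.

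Gfi1 was 6.44, 12.0 and 5.63 CPM in PBS and 14.4 and 5.94 CPM in AML, with a log2 fold change of 0.10 ± 0.41. Without AML replicate 1 the Gfi1 value turned to -0.43. Klf4 was 2.86, 2.69 and 2.46 CPM in PBS and 8.22 and 2.97 CPM in AML. Both AML libraries lay above PBS for Klf4, AML replicate 3 by a small margin, and the log2 fold change was 0.72 ± 0.42 (adjusted p = 0.552, edgeR). Without AML replicate 1 the Klf4 value was 0.13. Id2 was 6.10, 3.17 and 4.31 CPM in PBS and 2.57 and 8.30 CPM in AML, and its log2 fold change of 0.49 ± 0.36 turned to -0.84 without AML replicate 3.

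**Figure D2:**
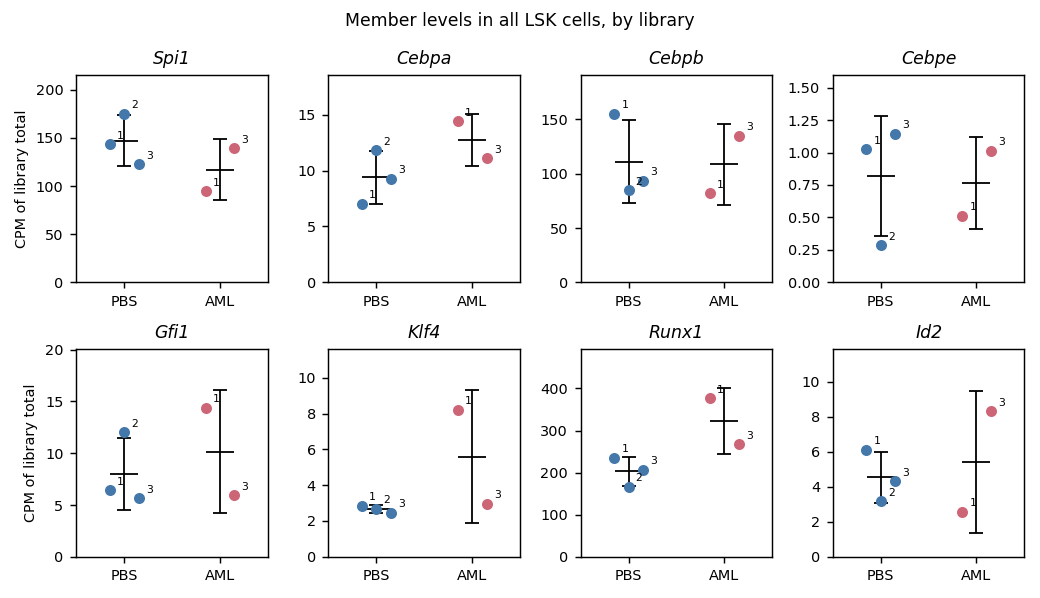
Level of each member over all LSK cells, in CPM of the library total, with a point for each library (numbered by replicate) and a bar with the mean and SD of its group. Only for Runx1 and Klf4 did both AML libraries lie above the 3 PBS libraries (Klf4 2.97 CPM in AML replicate 3, against 2.86 CPM in PBS replicate 1).

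The same comparison was made within each class and within clusters 0 to 4, which held at least 20 cells in all 5 libraries. None of the members was called in HSC, MPP2, MPP3 or MPP4, where 0.178%, 0.0399%, 0.0486% and 0.0325% of genes tested were called, nor in clusters 0, 1, 2, 3 or 4, where 0.0407%, 0.155%, 0.199%, 0.156% and 0.522% were. At an unadjusted p under 0.05, edgeR had 5 of 28 member tests in classes, where the share over all genes was 4.16%, 7.56%, 7.39% and 5.93% in HSC, MPP2, MPP3 and MPP4, and 9 of 36 in clusters, where it was 8.44%, 7.67%, 5.85%, 4.2% and 5.34% in clusters 0 to 4. Under DESeq2 and limma-voom there were 0 calls as well. Classes and clusters hold the same cells, so these tests are not independent of each other.

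Runx1 had a positive log2 fold change in all 9 of these comparisons, from 0.37 ± 0.28 in cluster 2 to 0.77 ± 0.28 in MPP2, with adjusted p-values of 0.531 and above in edgeR. Without AML replicate 1 these values were 0.22 in MPP3 to 0.55 in cluster 0, and that of MPP2 was 0.38. Its AML libraries lay above every PBS library in 8 of the 9. In HSC it was 278, 210 and 251 CPM in PBS against 473 and 354 CPM in AML, and in cluster 0 it was 281, 237 and 294 CPM in PBS against 496 and 430.4 CPM in AML. The exception was cluster 4, where AML replicate 3 (213 CPM) lay below PBS replicate 1 (224 CPM). The share of all genes with AML above PBS was 19.5%, 16.1%, 16.8% and 17.3% in HSC, MPP2, MPP3 and MPP4 and 20.5%, 12.1%, 13.7%, 12.5% and 10.1% in clusters 0 to 4, and a test of whether the Runx1 difference varied with class was at an adjusted p of 0.959 in edgeR.

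Spi1 was the reverse in sign, with a negative log2 fold change in all 9 comparisons, from -0.14 ± 0.28 in cluster 3 to -0.62 ± 0.29 in cluster 2, and from -0.049 in MPP3 to -0.37 in cluster 2 without AML replicate 1. In cluster 3 the sign turned without PBS replicate 2 (0.031) and with the replicate block (0.045). Its groups overlapped in each of the 9. In MPP4, the class with the highest mean level, it was 166, 205 and 141 CPM in PBS against 99.8 and 142 CPM in AML. The adjusted p-values were 0.702 and above in edgeR.

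Cebpa varied in sign, from -0.65 ± 0.43 in cluster 2 to 0.49 ± 0.33 in cluster 1. In cluster 1 both AML libraries (16.7 and 14.2 CPM) lay above the PBS libraries (8.82, 13.6 and 10.1 CPM). In HSC both lay below, as for 7.19% of genes, but AML replicate 1 had 0 Cebpa UMIs in 23 cells, where 3 UMIs would be 48.9 CPM. Klf4, Gfi1 and Id2 had no comparison within a class or cluster in which the groups did not overlap.

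**Figure D3:**
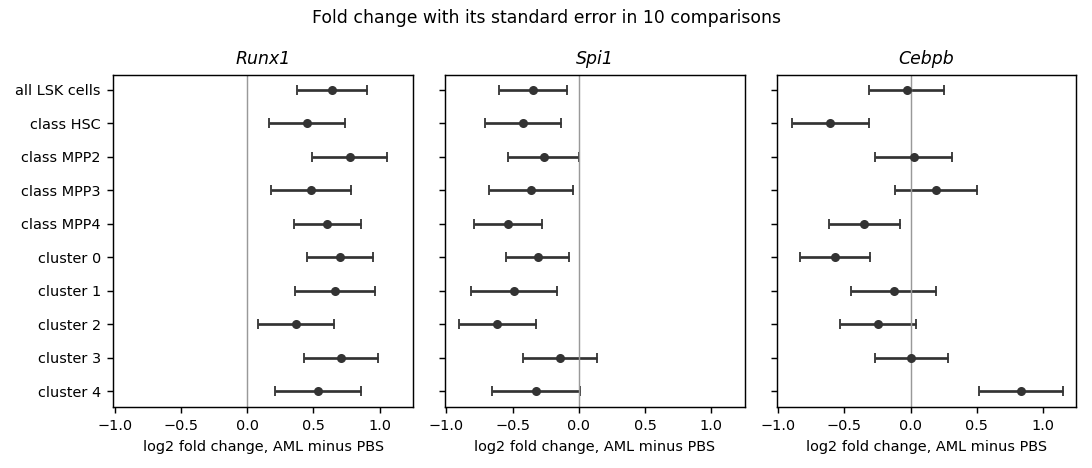
Log2 fold change of AML over PBS with its standard error for Runx1, Spi1 and Cebpb over all LSK cells, in 4 classes and in clusters 0 to 4. Runx1 was positive in all 10 and Spi1 negative in all 10 as plotted (in cluster 3 the Spi1 sign turned without PBS replicate 2), while Cebpb ran from -0.61 in HSC to 0.83 in cluster 4.

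Cebpb was the member whose difference depended on the class. In HSC its level was 183, 101 and 113 CPM in PBS and 65.3 and 102 CPM in AML, with a log2 fold change of -0.61 ± 0.29. Leaving out AML replicate 3 made it -1.43, and leaving out PBS replicate 1 made it -0.37. In MPP3 it was 169, 91.9 and 108 CPM in PBS and 112 and 196 CPM in AML, with a log2 fold change of 0.19 ± 0.31. The test of all class-by-treatment terms in edgeR, with a term for each library, gave an adjusted p of 0.00141, when 0.872% of 12734 genes passed. Relative to HSC the AML effect was larger by 0.77 ± 0.17 in MPP2, by 1.09 ± 0.18 in MPP3 and by 0.40 ± 0.17 in MPP4 on the log2 scale. It was the 1 member of 8 that passed.

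As long as cluster 4 was kept, the size of the MPP3 difference changed less than its adjusted p. Relative to HSC it was 0.92 to 1.17 over 8 alternatives, some of which left out 1 library, those that lost the call included. Without PBS replicate 1 the adjusted p was 0.0531 and without AML replicate 3 it was 0.744, and limma-voom, in which libraries were random effects, gave 1.00 and called 1 gene. AML replicate 1 had 23 HSC-class cells and 4 Cebpb UMIs in them, and without that library the adjusted p was 0.00263. The cells of cluster 4 made up 13.9%, 24.4% and 21.3% of the MPP3 class in the PBS libraries and 25.9% and 33.3% in the AML libraries. When cluster 4 was left out, an alternative chosen after seeing the data, the adjusted p was 0.135 (0.327% of genes passed). The log2 fold change was then -0.32 in MPP3 and -0.11 in MPP2, against 0.19 and 0.02 with cluster 4. Of the HSC-class cells, 6 lay in cluster 4. The range of 0.92 to 1.17 does not hold this fit.

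Cluster 4 was therefore examined by itself. Cebpb was 162, 126 and 101 CPM there in PBS and 199 and 261 CPM in AML, so that both AML libraries lay above PBS, as did those of 10.1% of genes in that cluster. The log2 fold change was 0.83 ± 0.32 (adjusted p = 0.555, edgeR), and it was 0.55 to 1.01 when 1 library was left out. In cluster 0 Cebpb was 158, 84.6 and 98.3 CPM in PBS and 69.1 and 89.5 CPM in AML, a log2 fold change of -0.57 ± 0.26, with -0.31 when PBS replicate 1 was left out and -0.73 when PBS replicate 2 was. The difference between the AML effects in clusters 4 and 0 was 1.52 ± 0.17, and the test of all cluster-by-treatment terms over clusters 0 to 4, also chosen after seeing the data, gave an adjusted p of 7.3e-07 in edgeR (0.516% of genes passed). Among clusters 0 to 3 the adjusted p was 0.197 (0.267% passed), without AML replicate 3 it was 0.0503, and under limma-voom 0.159, while the difference between clusters 4 and 0 was 1.29 to 1.64 with 1 library left out and 1.43 under limma-voom.

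Cluster 4 held 2.88%, 2.46% and 3.41% of the cells of the PBS libraries and 11.1% and 9.57% of those of the AML libraries. It gave 4.98% of Cebpb UMIs in PBS and 28.8% in AML, against 4.63% and 14.7% of all UMIs. For Runx1 the corresponding shares were 4.05% and 11.8%, below its share of all UMIs in both groups, and for Cebpe they were 67.7% and 75.9%. Markers of mast cells and basophils moved in the opposite direction in cluster 4, where 6 of 7 fell in AML and none rose, and their sum was 267 to 950 CPM in PBS and 22.1 to 199 CPM in AML with no marker at 0 in every library. The sum of 8 erythroid markers was 112 to 305 CPM in PBS and 53.0 to 72.4 CPM in AML (1 fell, and Alas2 and Ermap were among those at 0 throughout), and that of 8 T and NK cell markers was 237 to 304 CPM and 161 to 181 CPM (none was called, and Cd3e, Cd3g and Ncr1 were at 0 throughout). Without the 39 cells with 2 or more UMIs of Mcpt8 and Prss34 the Cebpb log2 fold change was 0.89 ± 0.32. Other contributions of cell makeup within cluster 4 were not tested.

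None of the other members was called in cluster 4 either. Cebpe was 16.6, 2.93 and 14.0 CPM in PBS and 4.42 and 5.10 CPM in AML, from 1 to 23 UMIs a library, with a log2 fold change of -1.39 ± 0.56 (adjusted p = 0.663, edgeR), and it was -1.26 ± 0.58 without the cells with basophil proteases. Id2 was 48.2, 8.79 and 20.9 CPM in PBS, 18.0 CPM in AML replicate 3 and 0 UMIs in the 77 cells of AML replicate 1, with a log2 fold change of -0.95 ± 0.41. It was -0.34 without PBS replicate 1, and without AML replicate 3 no AML library with an Id2 UMI remained, so that the fitted value of -7.60 is no measure of size. Gfi1 was 10.1, 26.4 and 8.53 CPM in PBS and 13.2 and 4.13 CPM in AML, with a log2 fold change of -1.27 ± 0.61, and its direction turned without AML replicate 3. The log2 fold changes of Spi1, Cebpa, Klf4 and Runx1 were -0.32, 0.22, 0.59 and 0.54.

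**Figure D4:**
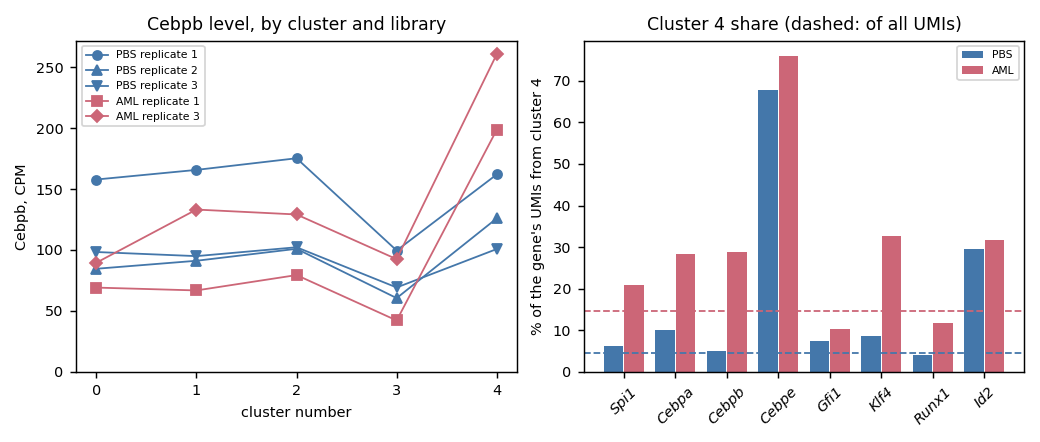
Left, Cebpb level in CPM by cluster number, with 1 line for each library. Right, percent of each member's UMIs that lay in cluster 4, pooled over the libraries of a group, with dashed lines at the cluster's share of all UMIs (4.63% in PBS and 14.7% in AML). In cluster 4 the AML libraries had 199 and 261 CPM of Cebpb, above the 101 to 162 CPM of the PBS libraries, and in cluster 0 they did not.

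Genes that act with the members or downstream of them were taken as 5 lists over all LSK cells. Of 12 measured paralogs of the members none passed in either direction, and their median log2 fold change was 0.07, against -0.03 over all genes. The 2 with the lowest p were Id1, which like Id2 inhibits E proteins, at 1.04, and Gfi1b, the erythroid and megakaryocyte relative of Gfi1, at -0.68, with adjusted p-values of 0.399 and 0.415 in edgeR. Of 23 partners and co-regulators, 1 rose (Irf8) and none fell, with a median of 0.14.

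Target genes of the members rose in part. Of 16 monocyte and Spi1 targets 4 rose and none fell, with a median log2 fold change of 0.83, where 0.153% of all genes rose and the median was -0.03. The lists were chosen with earlier results of these data known, so these counts are a description and not independent evidence of a direction. Not every such gene was higher: Lyz2, named here after its values were seen, was 85.9, 128 and 66.2 CPM in PBS and 42.1 and 57.3 CPM in AML (log2 fold change -0.91, adjusted p = 0.286, edgeR). Of a list of markers of mature monocytes and macrophages, which shares Csf1r, Ccr2, Lyz2, Cd14 and Cd68 with the targets, none of 8 measured was called, and their sum, most of which was Lyz2, was 92.1 to 152 CPM in PBS and 74.0 to 96.8 CPM in AML. Csf1r and Ccr2, receptors of monocytes that both lists hold, were higher in both AML libraries than in each PBS library, with log2 fold changes of 2.11 ± 0.44 and 2.01 ± 0.39 (adjusted p = 0.0826 and 0.0701, edgeR), and were also named after their values were seen. DESeq2 gave them adjusted p-values of 0.0119 and 0.00461. The largest rises among the targets called were F13a1, the transglutaminase of clotting that monocytes express, by 3.31 ± 0.43, Ly86, which encodes the MD-1 partner of RP105, by 2.78 ± 0.36, and Ms4a6c by 1.74 ± 0.27, with edgeR adjusted p-values of 0.00708, 0.00708 and 0.0183. F13a1 was 4.02, 0.577 and 4.66 CPM in PBS and 34.9 and 32.9 CPM in AML. Ly86 was 26.6, 12.8 and 36.3 CPM in PBS and 216 and 145 CPM in AML, and in both genes the AML libraries lay above the PBS libraries. Without PBS replicate 1 the adjusted p of F13a1 and of Ly86 was 0.0738 and that of Ms4a6c 0.148, and Ms4a6c was at 0.0845 without PBS replicate 2 and 0.0546 with equal class composition. DESeq2 gave F13a1 an adjusted p of 0.0561. With 1 library left out the log2 fold changes of F13a1, Ly86 and Ms4a6c were 2.95 to 3.74, 2.46 to 3.24 and 1.56 to 2.03.

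Of 9 early granulocyte targets 1 rose and none fell, with a median of 0.90. This was Ctsg, the azurophil granule protease cathepsin G, which was 50.3, 48.0 and 68.7 CPM in PBS and 142 and 190.3 CPM in AML and rose by 1.54 ± 0.26 (adjusted p = 0.0250, edgeR). With every library set to the same share of each class its log2 fold change was 0.49 (adjusted p = 0.665), and without PBS replicate 1 or 2 the adjusted p was 0.203 or 0.143, with log2 fold changes of 1.34 to 1.80 over the fits that leave out 1 library. Of 6 late granule genes that Cebpe controls, 1 rose and none fell, with a median of -0.74. The 1 that rose, Cybb, encodes a subunit of the phagocyte oxidase, which monocytes also use, and its log2 fold change was 2.52 ± 0.40 (adjusted p = 0.0183, edgeR). The call on Cybb was lost without PBS replicate 1 (0.133), PBS replicate 2 (0.109) or AML replicate 3 (0.0530), without cluster 4 (0.229) and with cells thinned to 2000 UMIs (0.0878), and with equal class shares its log2 fold change was 1.21 (adjusted p = 0.540), against 2.23 to 3.00 with 1 library left out. In these 5 lists together 7 genes were called.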

How the data were processed

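The authors deposited 6 matrices of UMI counts per gene and barcode, without normalization, and a table of single cells with a class from module scores, a cluster number and the percent of mitochondrial UMIs. Per the labels, libraries used Chromium V3 chemistry, and the submitters' processing notes name Cell Ranger 7.0.1, R 4.2.2, Seurat 4.3.0 and the builds GRCm38 and mm10. For cell filters, doublet handling, integration and the build of the matrices, the methods are not given in the sources used. The UMI and gene counts of the cell table matched what the matrices give in each cell. AML replicate 2 has no cell in that table and entered only a fit on barcodes with at least 1000 genes and at most 10% mitochondrial UMIs. No doublet caller was run, and leaving out the 5% of cells with most UMIs was an alternative.

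For each library, counts of the table's cells were added up over LSK cells as a whole and within each class or cluster of at least 20 cells. Sums were tested with edgeR 4.0.16 under R 4.3.3 (TMM, filterByExpr by group, quasi-likelihood F test, Benjamini-Hochberg adjustment over all genes tested, threshold 0.05). The main fits had no replicate block. Deviations of same-numbered libraries from their group means correlated at r = -0.057 and -0.055. With 2 AML libraries these deviations mirror each other, so they cannot settle whether libraries are paired. Whether effects differed between classes was tested by class-by-treatment terms in a model that also held every library. The design had been written for 3 against 3 libraries, if all were in the table. Alternatives were DESeq2 1.42.0, limma-voom (limma 3.58.1), library-size scaling, no filter, a replicate block, each library left out, cells thinned to 2000 UMIs, equal class shares, and cells without cluster 4 or clusters 6, 7 and 8. Scripts were tested on simulated data. CPM uses the plain UMI total, fold changes the TMM total. Intervals and limits are exact at 95% or 3 counts and cover counting error only. Members, lists and the naming rule (all members, Irf8, the 3 largest called rises and falls of each list, else its 2 lowest p, and the 3 genes most alike) were chosen with earlier results of these data known. 1 gene that the rule names is not reported here. Tables and plots used Python 3.11.15 with pandas 2.3.3 and matplotlib 3.10.9.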

Additional observations from a re-analysis of the deposited data

Results flagged for a closer look

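The AML effect on Cebpb differed between classes by an edgeR test of the difference itself (adjusted p = 0.00141) and between clusters 0 to 4 (adjusted p = 7.3e-07). The differences were 1.09 between MPP3 and HSC and 1.52 between clusters 4 and 0. They were 0.92 to 1.17 and 1.29 to 1.64 over alternatives that kept cluster 4, some of which left out 1 library. Neither adjusted p stayed under 0.05 in every fit. Without AML replicate 3 the values were 0.744 and 0.0503, under limma-voom 1.00 and 0.159, and without cluster 4 they were 0.135 and 0.197. The class value was 0.0531 without PBS replicate 1. With cluster 4 left out of the classes, the Cebpb log2 fold change in MPP3 was -0.32, against 0.19 with it. In cluster 4 basophil markers fell in AML, and that cluster held a larger share of the cells in AML. Without the cells with basophil proteases the Cebpb log2 fold change in cluster 4 was 0.89 ± 0.32, against 0.83 with them. Whether either contributed to the differences was not tested.

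AML replicate 2 is outside every comparison above, and some members were higher in it than in each PBS library when all barcodes were filtered alike. The filter left 106 of its 17055 barcodes, with 306059 UMIs, and 75 of the 106 barcodes also occur in another library, so these values rest on few barcodes. Runx1 was at 291 CPM from 89 UMIs, against 170 to 230.5 CPM in the PBS libraries. Cebpe was at 16.3 CPM from 5 UMIs, against 0.391 to 0.9504 CPM in PBS. Gfi1 was at 13.1 CPM and Klf4 at 13.1 CPM, each from 4 UMIs, against up to 12.0 and 2.66 CPM in PBS. Id2 had 0 UMIs, against 3.68 to 5.92 CPM in PBS. Of 16816 genes with at least 10 UMIs over the 6 libraries, 32.8% lay above and 48.8% below every PBS library in AML replicate 2. With this library in the fit, edgeR gave Runx1 a log2 fold change of 0.65 ± 0.24 with an adjusted p of 0.238, and 0 members were called.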

How the results depend on the processing

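No member was called in any of the 10 comparisons of AML with PBS under the 119 alternative fits, and Runx1 kept a positive log2 fold change in each. Of 630 alternative values of 51 fold changes and interaction values, 578 kept direction and side of the threshold, 23 lost a call and 29 turned. The cause was not tested for any of the changes.

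Of the other pathway genes, 7 were called over all LSK cells, against 12 with DESeq2, 20 with no filter on low counts, 11 with the replicate block, 4 with cells thinned to 2000 UMIs, 3 with equal class composition and 12 with all barcodes filtered alike in 6 libraries. With 1 library left out the number ran from 0 (without PBS replicate 1) to 11 (without PBS replicate 3). The count of members with a class-by-treatment difference was 1, and 0 with limma-voom or without cluster 4, and 0 to 1 with 1 library left out. The count for clusters was 1, and 0 with limma-voom or clusters 0 to 3 only, and 0 to 1 with 1 library left out. Whether same-numbered libraries share more than a number could not be told. With 2 AML libraries, their deviations from the group mean mirror each other. The replicate block called 91 genes in place of 23 and 0 members.

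Over all LSK cells, log2 fold changes turned for Gfi1 (limma-voom -0.061, and -0.43 to 0.88 with 1 library left out, of which -0.04 without PBS replicate 1 or 3), Cebpe (replicate block -0.45, equal class composition -0.71, and -0.77 to 0.37, of which -0.24 without PBS replicate 2), Cebpb (-0.42 to 0.27, of which 0.24 without PBS replicate 1), Id2 (-0.84 to 0.82) and Cebpa (equal class composition -0.020). Cebpb turned in MPP2 (replicate block -0.19, without cluster 4 -0.11, and -0.38 to 0.28, of which -0.15 without PBS replicate 2), in MPP3 (without cluster 4 -0.32, and -0.30 to 0.52), in cluster 1 (-0.72 to 0.19, of which 0.11 without PBS replicate 1) and in cluster 3 (DESeq2 -0.064, replicate block -0.20, and -1.01 to 0.23, of which -0.11 and -0.02 without PBS replicates 2 and 3). Spi1 turned in cluster 3 (replicate block 0.045, and -0.23 to 0.031), and in cluster 4 Cebpa (-0.068 to 0.75) and Gfi1 (-1.54 to 0.069) did.

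A fit with 1 AML library left assumes that it varies like the PBS libraries. Depth limits Cebpe, Klf4, Gfi1, Id2 and Cebpa, with 5 UMIs or fewer in some libraries and classes. The same held for Cebpb and Spi1 in the 23 HSC-class cells of AML replicate 1. The cluster-by-treatment test with its alternatives, the class-by-treatment test without cluster 4 and the fit without cells with basophil proteases were chosen after seeing the data.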
